A study of Mus musculus with 2 samples.

Results

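The proteasome genes were taken by symbol from the feature lists of both libraries, as every gene named Psma, Psmb, Psmc, Psmd, Psme, Psmf or Psmg followed by a number, without the inducible subunits Psmb8 and Psmb9. The rule found 46 genes among 33696 features, the same in both libraries, and did not use their levels. They were measured by single-cell RNA sequencing in solid tumours of the ID8 mouse model, in which a line from C57BL/6 mouse ovarian surface epithelium grows in the abdominal cavity of immunocompetent mice. The primary library came from treatment-naive tumours, and the chemoresistant library from chemoresistant tumours of cisplatin treatment, cisplatin being a platinum compound that damages DNA. Both libraries share the model, the tissue and the dissociation. The labels name no host genotype, age, dose or treatment time, and not how many tumours or mice were pooled. With 1 library of pooled suspensions per group there is no replicate, so no test was possible, and each interval below is a 95% interval for counting error only (exact Poisson for a level, exact binomial for a fold or a share). For the ratio of core to regulatory genes, described below, it is a normal approximation on the log scale.

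The proteasome degrades proteins that carry ubiquitin. Its core particle is a barrel of stacked rings of alpha subunits, which gate the channel, and beta subunits, of which Psmb5, Psmb6 and Psmb7 cut proteins. The regulatory particle caps the barrel: ATPases encoded by Psmc genes unfold the substrate, and non-ATPase subunits encoded by Psmd genes bind and remove ubiquitin. Interferon gamma induces Psmb8, Psmb9 and Psmb10, which replace the constitutive cutting subunits in the immunoproteasome, together with the activator subunits Psme1 and Psme2. Proteasomes are abundant in tumour cells and in cells that present antigen. The 46 genes comprise 17 core genes (8 alpha and 9 beta), 17 of the regulatory particle (6 ATPases and 11 non-ATPase subunits), 4 activators, the inhibitor Psmf1 and 7 assembly chaperones (Psmg1 to Psmg4, Psmd5, Psmd9 and Psmd10).

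Cells were placed in classes by the number of marker genes they carried, and 7 classes held at least 100 cells in both libraries. They comprised (primary and chemoresistant cells) the tumour class with 453 and 1886, fibroblasts with 289 and 409, mononuclear phagocytes with 2662 and 3748, neutrophils with 1320 and 647, dendritic cells with 456 and 262, B cells with 2669 and 2591 and T cells with 845 and 174. The tumour class had 14 and 15 of its 18 epithelial and mesothelial markers at a level of at least 10 CPM (the UMIs of a gene scaled to a fixed total per class and library), and these markers do not part tumour from mesothelial cells. Its own list summed to 4024 and 4674 CPM and the next, that of fibroblasts, to 702 and 607 CPM. In T cells the list of natural killer and innate lymphoid cells reached 2808 and 3807 CPM beside 5126 and 5701 CPM of their own, and its part in the T cell results was not tested. The libraries held 141334623 and 158118781 UMIs and shared 52 barcodes. Median depth differed between the libraries within classes, from 43764 against 26407 UMIs per cell in the tumour class to 2440 against 901 in neutrophils. The classes also drew on different clusters: 54.3% of primary tumour-class cells lay in cluster 11 (led by Cst12, Sparc and Cxcl1), while 67.2% of the chemoresistant ones lay in cluster 2 (Kcnd2, Tm4sf1, Dmkn). Fibroblasts lay 99.3% in cluster 16 (Mgp, Col1a2, Col3a1) in the primary and 93.4% in cluster 18 (Col1a1, Spp1, Cryab) in the chemoresistant library, and B cells 68.7% in cluster 1 and 80.5% in cluster 0. The fibroblast markers were also weaker in the chemoresistant fibroblasts. Their list summed to 18677 CPM in the primary and 6287.5 CPM in the chemoresistant library, with 10 and 9 of its 10 markers at 10 CPM. Values within clusters and depth ranges are therefore given beside the library comparisons.

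Of the 46 genes, 44 reached 10 CPM in at least 1 class and library. Psma8, the alpha subunit of testis proteasomes, stayed at or below 4.44 CPM, and Psmb11, the beta subunit of thymic epithelium, at or below 0.436 CPM. All levels are UMIs counted at the 3' end of transcripts and are not scaled by length, so the level of a gene is compared with its own level between classes and libraries. Sums over genes, and UMIs of a gene or group per UMI of another, are likewise compared between classes and libraries. They do not measure which gene has more transcripts. A level is a share of the UMIs of its class, and more proteasome transcripts cannot be told apart from fewer transcripts of other genes.

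Proteasome transcripts took the largest share of UMIs in the tumour class. The summed level of all 46 genes was 6011 CPM in the primary and 6443 CPM in the chemoresistant tumour class. Mononuclear phagocytes came to 4865 and 5265 CPM, fibroblasts to 4974 and 5206 CPM, and dendritic cells to 4862 and 5823 CPM. The lowest sums were those of neutrophils (3157 and 3592 CPM) and B cells (3228 and 3534 CPM), with T cells at 3867 and 4834 CPM. The order of the libraries was the same in all 7 classes, but it turned in fibroblasts when classes were set by Leiden cluster (5186 and 5048 CPM) and in the tumour class in cells of 2000 to 10000 UMIs (6584 and 6519 CPM). Of 22 clusters with at least 50 cells in both libraries, 19 had the higher sum in the chemoresistant library. The sum was lower there in B cell clusters 0 (3983 and 3588 CPM) and 1 (3228 and 3206 CPM), which hold most B cells, and in phagocyte cluster 9 (4707 and 4571 CPM). B cell cluster 6 had 3076 and 3392 CPM. Plasma cells and endothelial cells, counted in the primary library alone, had 2927 and 4141 CPM. The order of the upper classes moved with depth: among primary cells of 10000 to 20000 UMIs, the tumour class summed to 5291 CPM (5103 to 5483), dendritic cells to 5267 CPM, mononuclear phagocytes to 4963 CPM, fibroblasts to 4073 CPM and B cells to 3922 CPM.

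Gene by gene, 20 of the 44 genes had their highest level of the 7 classes in the tumour class in both libraries, where 16.5% of all genes of at least 10 CPM did. They were 7 core genes (Psma2, Psma7, Psmb1, Psmb3, Psmb5, Psmb6 and Psmb7), 4 ATPases (Psmc2 to Psmc5), 6 other regulatory subunits (Psmd1, Psmd3, Psmd4, Psmd11, Psmd12 and Psmd13) and the chaperones Psmd9, Psmd10 and Psmg3. Psmb6, the caspase-like cutting subunit, stood out by its range, with 381 and 320 CPM in the tumour class against 87.6 and 117 CPM in B cells. Psmb5, the chymotrypsin-like subunit and target of bortezomib, had 194 and 199 CPM in the tumour class, 148 and 173 CPM in fibroblasts, 147 and 164 CPM in mononuclear phagocytes, and 71.2 and 90.7 CPM in B cells, the lowest class. Psmb7, the trypsin-like subunit, ranged less, from 98.7 and 125 CPM in the tumour class to 63.2 and 57.4 CPM in B cells, and the intervals of dendritic cells (96.0 and 120 CPM) overlapped those of the tumour class. Neutrophils were the lowest class in both libraries for 14 of the 44 genes, where 10.3% of all genes were lowest in neutrophils, and B cells for 12, where 6.28% were.

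**Figure D1:**
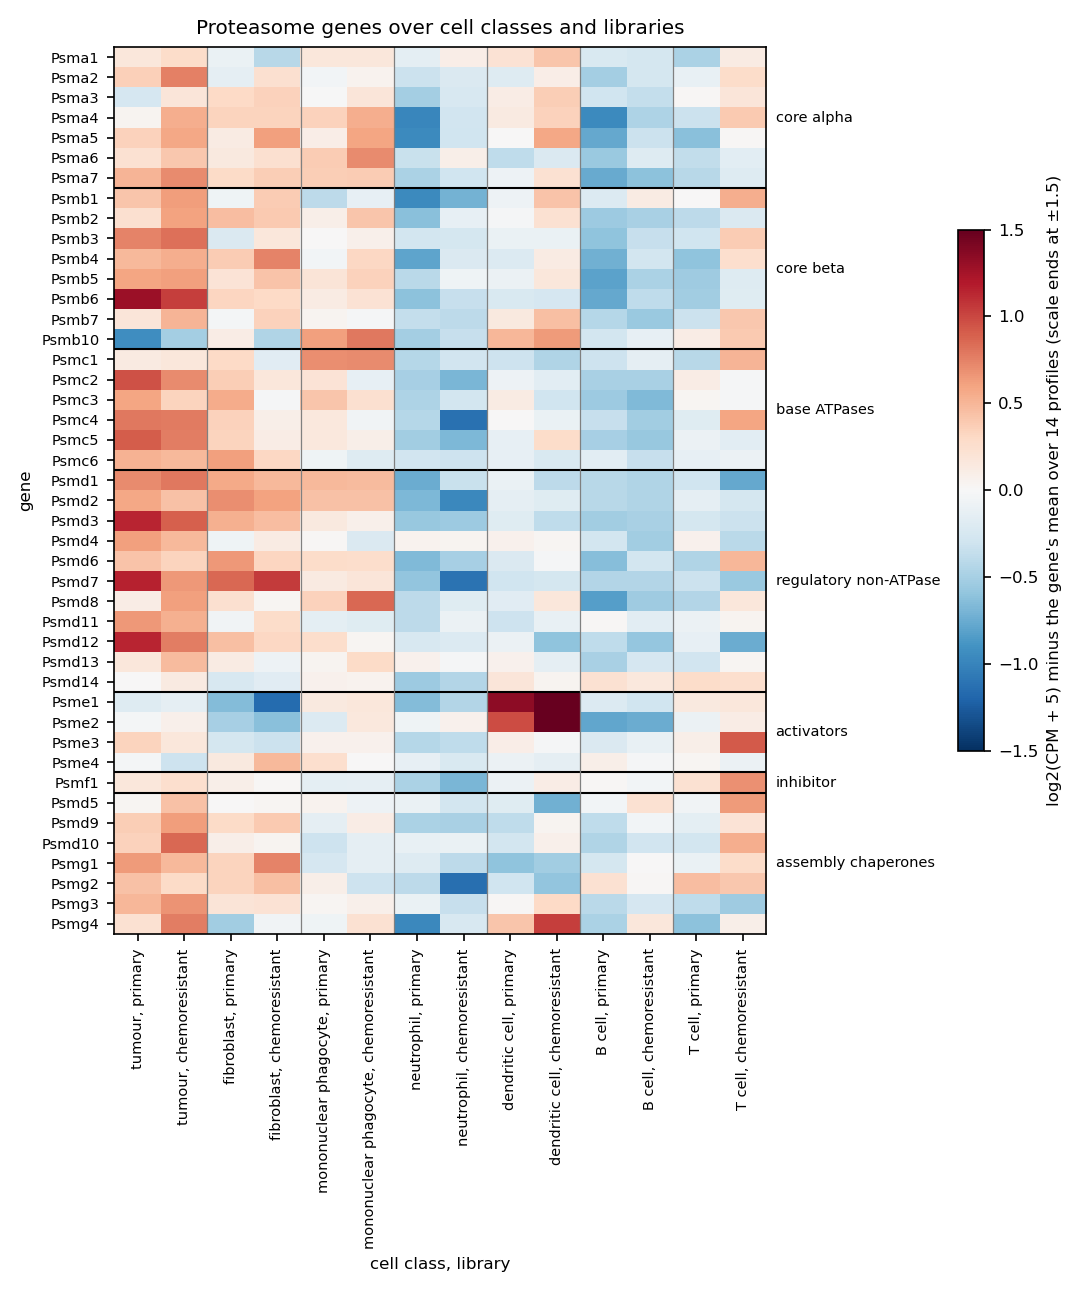
Levels of the 44 proteasome genes that reached 10 CPM (rows, grouped by role) in 7 cell classes and 2 libraries (columns), as log2(CPM + 5) minus the mean of the gene over the 14 columns, where red is above and blue below that mean. The tumour columns are red for most core, ATPase and non-ATPase genes, Psmb10 is blue there, and Psme1 and Psme2 are darkest in dendritic cells.

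Psmb10 and the activators broke this order. Psmb10, the inducible counterpart of Psmb7, was lowest of the 7 classes in the tumour class in both libraries, with 40.4 CPM (902 UMIs) in the primary and 55.9 CPM (3198 UMIs) in the chemoresistant library. Chemoresistant fibroblasts were close, at 58.5 CPM (395 UMIs), and fibroblast cluster 18 (53.7 CPM) lay below tumour cluster 2 (60.3 CPM) in that library. Mononuclear phagocytes held 128 and 145 CPM and dendritic cells 117 and 130 CPM, while T cells had 88.4 and 108 CPM. The tumour class thus had 0.409 Psmb10 UMIs per Psmb7 UMI (0.378 to 0.442) in the primary and 0.446 (0.427 to 0.465) in the chemoresistant library, intervals that overlap, and this order turned with doublets kept, with cells thinned to 1000 UMIs and with the set-aside cells kept. Mononuclear phagocytes had 1.43 and 1.69, and B cells 1.05 and 1.30. Fibroblasts went the other way, from 88.4 to 58.5 CPM of Psmb10 and from 1.04 (0.899 to 1.20) to 0.526 (0.464 to 0.595) Psmb10 per Psmb7 UMI. The lower Psmb10 level also appeared within cluster 16, the one fibroblast cluster with 50 cells in both libraries, where Psmb10 had 93.9 and 61.2 CPM over all cells of the cluster. In the tumour class it did not hold within both main clusters: Psmb10 had 54.7 and 60.3 CPM in cluster 2, but 32.1 and 24.4 CPM in cluster 11. For the other inducible subunits, Psmb8 per Psmb5 UMI was 0.503 and 0.884 and Psmb9 per Psmb6 UMI 0.142 and 0.222 in the tumour class, against 5.76 and 6.39, and 2.69 and 3.73, in dendritic cells. The levels of both also parted by tumour cluster. Psmb8 had 128 and 196 CPM in cluster 2 but 75.0 and 46.7 CPM in cluster 11, and Psmb9 60.4 and 83.6 CPM but 48.8 and 13.6 CPM. How far the mix of clusters moved the class values was not tested.

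The activators were the other exception. Psme1 and Psme2 encode the alpha and beta subunits of PA28, a ring that opens the core without ATP and aids the release of peptides for antigen presentation. Both were highest in dendritic cells in both libraries, as were Psma1 and Psmg4, which makes 4 of 44 genes where 5.59% of all genes had their highest level in that class. Dendritic cells held 622 CPM of Psme1 in the primary and 837 CPM in the chemoresistant library, while the next class, T cells in the primary (271 CPM) and mononuclear phagocytes in the chemoresistant library (275 CPM), had intervals well clear of these. The tumour class stood at 212 and 221 CPM and fibroblasts, the lowest class, at 153 and 107 CPM. Psme2 had 358 and 572 CPM in dendritic cells, 175 and 190 CPM in the tumour class and 103 and 105 CPM in B cells. Within dendritic cells, cluster 19 (led by Ccl5, Fscn1 and Ccr7) held 772 and 1080 CPM of Psme2, and cluster 20 (with Clec9a and Itgae) 203 and 302 CPM. Psme1 differed less between them, with 780 and 1090 CPM in cluster 19 and 655 and 701 CPM in cluster 20. In the primary library, Psme2 in cluster 20 lay below neutrophil cluster 22 (439 CPM) and tumour cluster 14 (452 CPM). Psmg4 had 193 and 291 CPM in cluster 19. In cluster 20 it had 72.9 and 118 CPM, below the 88.6 and 132 CPM of the tumour class. Cluster 19 made up 26.1% of primary and 38.5% of chemoresistant dendritic cells, so its share moved with the class level. Clusters 19 and 20 were also higher on their own for both genes. Cluster 12, which carried dendritic and phagocyte markers too close to part, held 27.4% of primary and 17.2% of chemoresistant dendritic cells. Over all its cells it had 335 and 391 CPM of Psme1 and 156 and 180 CPM of Psme2.

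Psme3, which forms the nuclear PA28 gamma ring, did not share this pattern: dendritic cells had 31.2 and 28.6 CPM, and the primary level ran only from 20.3 CPM in neutrophils to 37.8 CPM in the tumour class. Psme4, the PA200 activator, lay between 89.8 and 160 CPM in all 7 classes of both libraries. Psmf1, the inhibitor PI31, had its highest value in T cells (23.1 and 33.5 CPM) and its lowest in neutrophils (12.2 and 9.80 CPM). The chemoresistant values rest on 13 and 7 UMIs. The T cell intervals (18.9 to 27.9 and 17.9 to 57.4 CPM) hold the tumour class levels of 22.0 and 23.4 CPM. Over the 14 profiles of class and library, the log2 level of Psme1 correlated with that of Psme2 at a Pearson r of 0.87, with Psmb8 at 0.87 and Psmb9 at 0.88, but with Psme3 at 0.37. Psmb10 correlated with Psmb8 at 0.75 and with Psmb7 at 0.17. These are descriptions over profiles that share their library and depth.

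**Figure D2:**
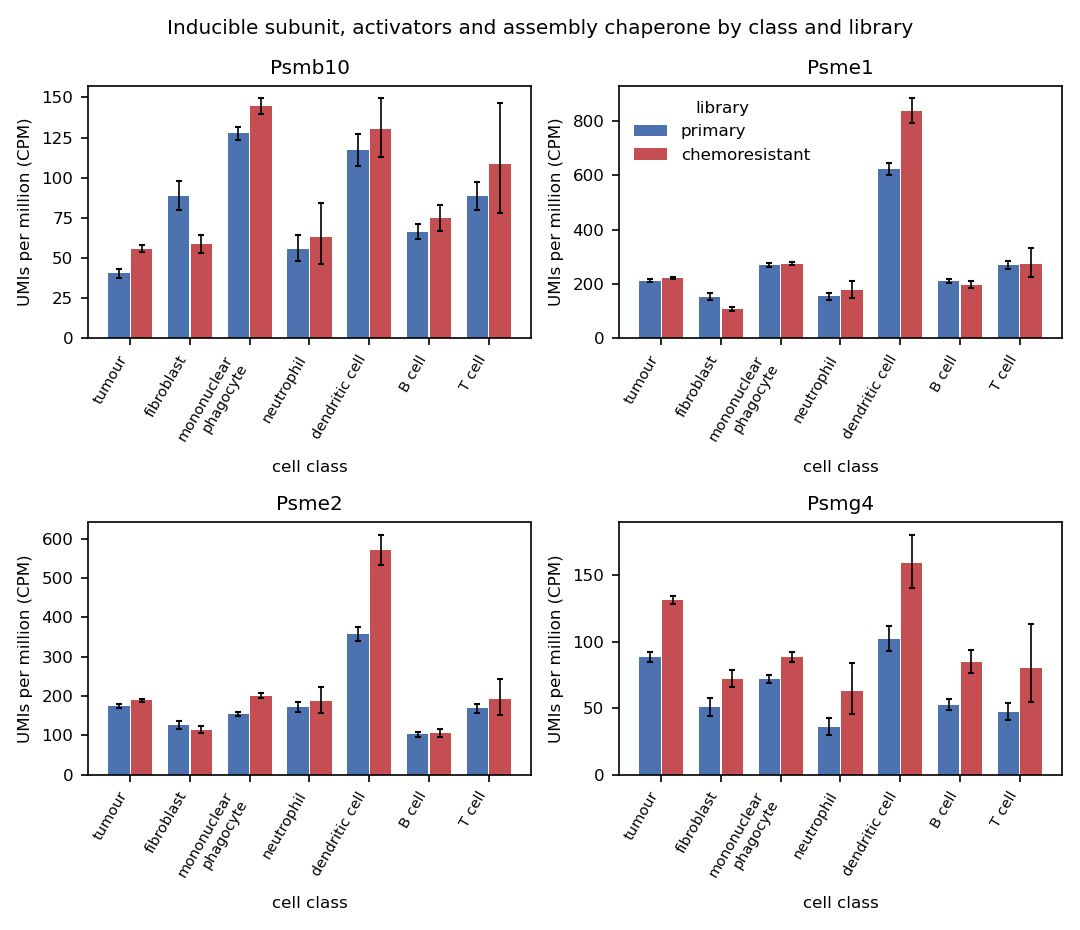
Levels (CPM) of Psmb10, Psme1, Psme2 and Psmg4 in 7 cell classes, with bars for the primary (blue) and chemoresistant (red) library and 95% counting intervals. Psme1 and Psme2 stand highest in dendritic cells. Psmb10 is lowest in the tumour class, with chemoresistant fibroblasts close to it. Each chemoresistant Psmg4 bar stands above its primary one.

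The promoters of these 4 genes, and of the alpha subunit Psma5, are shown because their levels part from the rest of the family or were higher in every class of the chemoresistant library. Each window runs 5' to 3' on the strand of its gene from 250 bases before to 50 after a RefSeq start on GRCm38.p6, and 38 of the 46 genes had such a window. Capitals mark matches, on either strand, to the core of the antioxidant response element (TGANNNNGC, a site type bound by NRF1 and NRF2) or to the core of the interferon-stimulated response element (GAAA, 2 bases of any kind, GAAA). The windows lie at chr14:55578244-55578543 (plus strand) for Psme1, chr14:55591052-55591351 (minus) for Psme2, chr8:105938343-105938642 (minus) for Psmb10, chr13:34162714-34163013 (plus) for Psmg4 and chr3:108256676-108256975 (plus) for Psma5.
Psme1: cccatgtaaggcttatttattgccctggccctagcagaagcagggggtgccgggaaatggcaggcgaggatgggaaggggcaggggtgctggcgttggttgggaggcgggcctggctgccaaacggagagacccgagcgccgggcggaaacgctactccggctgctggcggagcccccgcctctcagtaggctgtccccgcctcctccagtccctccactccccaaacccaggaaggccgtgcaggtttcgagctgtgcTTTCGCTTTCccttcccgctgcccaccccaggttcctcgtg
Psme2: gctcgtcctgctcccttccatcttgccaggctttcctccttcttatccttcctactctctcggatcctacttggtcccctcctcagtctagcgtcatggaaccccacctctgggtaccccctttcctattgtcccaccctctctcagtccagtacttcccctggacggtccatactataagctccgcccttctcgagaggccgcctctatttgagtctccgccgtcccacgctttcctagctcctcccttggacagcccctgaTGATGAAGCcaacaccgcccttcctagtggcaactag
Psmb10: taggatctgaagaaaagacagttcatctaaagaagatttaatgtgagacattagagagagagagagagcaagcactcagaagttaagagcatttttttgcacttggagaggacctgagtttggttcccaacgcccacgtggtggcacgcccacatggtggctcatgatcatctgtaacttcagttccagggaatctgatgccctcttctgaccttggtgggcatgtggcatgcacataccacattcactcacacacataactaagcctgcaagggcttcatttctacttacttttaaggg
Psmg4: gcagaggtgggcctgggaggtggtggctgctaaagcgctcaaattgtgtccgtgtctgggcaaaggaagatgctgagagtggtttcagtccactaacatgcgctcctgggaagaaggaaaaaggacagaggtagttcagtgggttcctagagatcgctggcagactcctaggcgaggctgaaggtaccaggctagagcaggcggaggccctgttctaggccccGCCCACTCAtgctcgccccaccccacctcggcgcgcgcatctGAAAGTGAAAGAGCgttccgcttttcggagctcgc
Psma5: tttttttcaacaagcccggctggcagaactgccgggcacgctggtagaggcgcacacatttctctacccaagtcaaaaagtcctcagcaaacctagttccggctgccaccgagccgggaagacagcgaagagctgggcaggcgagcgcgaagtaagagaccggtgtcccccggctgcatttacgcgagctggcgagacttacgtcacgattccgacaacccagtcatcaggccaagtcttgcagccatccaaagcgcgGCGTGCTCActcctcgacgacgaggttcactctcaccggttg
The Psme1 window holds the interferon element, read on the opposite strand, from position 10 after the start. Psmg4 holds it from position 16, overlapping an antioxidant element from position 21, with another antioxidant element from position -27. Psma5 has an antioxidant element from position 9 and Psme2 from position 14, and Psmb10 has no match to either. Psme2 has a further RefSeq window on chromosome 14 from 55590972 to 55591271, in which the same element lies at position -67. Among the 38 genes, 5 windows held the interferon element (13.2%: Psmb3, Psmd4, Psmd9, Psme1 and Psmg4), as did 3.99% of all 27025 genes with a window. The antioxidant core was in 21 (55.3%) against 45.1% of all genes. The gamma-activated site TTCNNNGAA was in 2 (5.26%, Psmd2 and Psmg1) against 9.55%, and CCAAT in 13 (34.2%) against 41.1%. A match describes letters in the window and shows no binding. By the GENCODE vM21 annotation, Psme1 spans chr14:55578123-55581529 and Psme2 chr14:55587441-55591113, so the pair are neighbours on opposite strands. Psmb10 spans chr8:105935735-105938444, Psmg4 chr13:34162964-34178173 and Psma5 chr3:108256926-108279974.

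Between the libraries, the median ratio of the core genes lay above 0 in all 7 classes, although single core genes lay below 0 in most of them, and the regulatory median lay at 0.02 or below. A gene was called when its log2 ratio of chemoresistant to primary CPM, with 5 CPM added to each, lay past 1.5-fold and it had at least 10 CPM in 1 library. In the tumour class 0 of 44 genes were called in either direction, where 5.27% of all genes were called higher and 10.7% lower. The median log2 ratio of the 15 core genes at 10 CPM was 0.22 in the tumour class, with 14 above 0 (in cells of 2000 to 10000 UMIs it was -0.017), and that of the 17 regulatory genes -0.12, with 5 above 0. The median over all genes was -0.12. The summed core level went from 3185 to 3635 CPM, 1.14-fold (1.13 to 1.15), and the regulatory level from 1981 to 1882 CPM, 0.950-fold (0.940 to 0.961).

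Within the tumour class, each role group had its own spread. Among alpha subunits the log2 ratio ran from 0.12 for Psma1 (117 and 127 CPM) to 0.51 for Psma4 (151 and 218 CPM), and all 7 lay above 0. Beta subunits ran from -0.25 for Psmb6 (381 and 320 CPM) to 0.42 for Psmb10. Psmb6 was the only core gene below 0 there, whereas Psmb5 lay at 0.03 and Psmb7 at 0.33. The ATPases ran from -0.25 for Psmc3 (121 and 101 CPM) to 0.04 for Psmc1 (50.4 and 52.0 CPM). Non-ATPase subunits spread the most, from -0.50 for the lid subunit Psmd7 (181 and 126 CPM) to 0.51 for the lid subunit Psmd8 (141 and 203 CPM). Psmd4, a ubiquitin receptor, had 172 and 158 CPM (-0.12), and Psmd14, the lid enzyme that cuts ubiquitin off the substrate, 103 and 114 CPM (0.14). Activators ran from -0.28 for Psme4 (110 and 89.8 CPM) to 0.11 for Psme2. Chaperones ran from -0.16 for Psmg2 (26.7 and 23.3 CPM) to 0.54 for Psmg4 (88.6 and 132 CPM), and Psmf1 lay at 0.07.

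In fibroblasts 0 of 44 genes were called, beside 10.1% of all genes higher and 29.3% lower. The core median was 0.09, with 10 of 15 above 0, and the regulatory median -0.19, beside -0.25 for all genes. Psmb10 (-0.56) and Psma1 (-0.31) were the lowest core genes. Psma5 was highest there, with 120 and 171 CPM (log2 ratio 0.49). Psmc3 was lowest, with 118 and 77.5 CPM (-0.57), and all 6 ATPases lay below 0. Mononuclear phagocytes also had 0 of 44 called, beside 2.06% higher and 8.1% lower. Their core median was 0.18, their regulatory median -0.03 and the median of all genes -0.23, and their extremes were Psmd8 (167 and 240 CPM, 0.51) and Psmg2 (19.8 and 13.8 CPM, -0.40).

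Dendritic cells had 2 of 43 genes called higher, where 3.77% of all genes were, and 0 lower beside 21.3%. Psme2 was 1.60-fold higher without the added CPM (1.47 to 1.73), and Psmg4, at 102 and 159 CPM, 1.56-fold (1.33 to 1.82). Psme1 was 1.34-fold higher (1.26 to 1.44), which did not pass the fold. The lowest ratio was that of the base chaperone Psmd5, with 18.3 and 11.1 CPM (-0.54). The core median was 0.25 with 14 of 15 above 0, and the regulatory median -0.11, beside -0.27 for all genes. In B cells 1 of 44 was called higher beside 6.42% of all genes, and 0 lower beside 7.0%. It was Psmg4, with 52.5 CPM (680 UMIs) and 85.0 CPM (375 UMIs), 1.62-fold (1.42 to 1.84). Psmd4 was lowest in B cells, with 90.8 and 75.7 CPM (-0.25). The core median was 0.27 and the regulatory median -0.04, beside -0.05 for all genes. Within B cell clusters, over all their cells, the core median was -0.032 in cluster 0, -0.0098 in cluster 1 and 0.19 in cluster 6.

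The remaining classes were thin in the chemoresistant library, and their calls rest on few UMIs. Neutrophils held 714109 UMIs there, and 3 of 44 genes were called higher, beside 12.8% of all genes, and 2 lower, beside 13.5%. Psma4 (72.8 and 120 CPM), Psma5 (54.2 and 88.2 CPM) and Psmg4 (35.8 and 63.0 CPM) were higher. Psmc4, an ATPase, was lower at 36.9 and 21.0 CPM (133 and 15 UMIs), and so was Psmg2 at 12.8 and 5.60 CPM (46 and 4 UMIs). The counting interval of the fold excluded 1 for 4 of the 5, and not for Psmg2. The neutrophil calls also rest on how cells were classed: with the cells kept whose cluster is led by markers of another class (19 primary and 43 chemoresistant cells), the log2 ratio of Psmc4 was 0.07.

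T cells held 387497 UMIs in the chemoresistant library, and 14 of 44 genes were called higher, beside 14.3% of all genes, and 1 lower, beside 18.4%. The higher genes were 6 core genes (Psma1, Psma4, Psma5, Psmb3, Psmb4 and Psmb7), 4 regulatory genes (Psmc1, Psmc4, Psmd6 and Psmd8), the activator Psme3 and the chaperones Psmd5, Psmd10 and Psmg4. Psmd6, a lid subunit, had the highest ratio, with 35.0 and 72.3 CPM (161 and 28 UMIs), 2.06-fold (1.33 to 3.09). Psmb4, a structural beta subunit, had more counts behind it, with 120 and 222 CPM (552 and 86 UMIs), 1.85-fold (1.45 to 2.32). Psmd12, a lid subunit, was the one lower gene, at 58.5 and 36.1 CPM (269 and 14 UMIs), 0.617-fold (0.333 to 1.05). The interval excluded 1 for 13 of the 15 and lay wholly past 1.5-fold for 0 of them. All 15 core genes lay above 0 in T cells, with a median of 0.38, while the regulatory median was -0.05 and that of all genes -0.04.

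**Figure D3:**
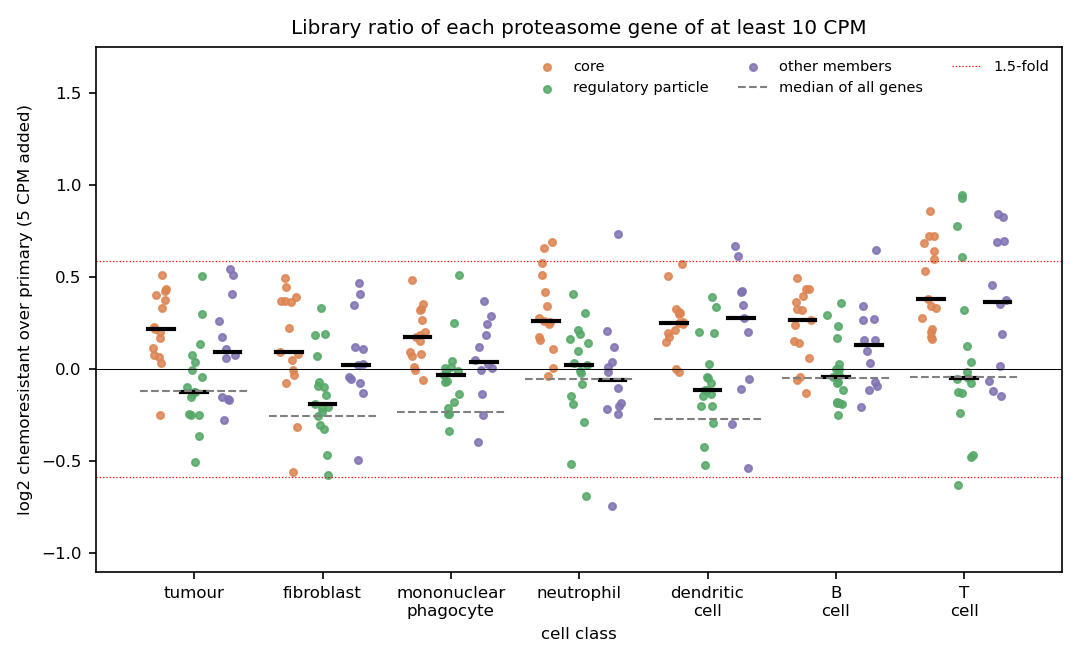
Log2 ratio of chemoresistant to primary CPM (5 CPM added) for each proteasome gene of at least 10 CPM in 7 cell classes, with core genes in orange, regulatory genes in green and others in purple. Black bars are group medians, dashed lines the median of all genes and dotted lines 1.5-fold; the core medians lie above 0 in each class, and T cells hold most of the points past the dotted lines.

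Psmg4 encodes a chaperone that helps build the alpha ring. It was higher in the chemoresistant library in all 7 classes, from 71.7 and 88.7 CPM in mononuclear phagocytes (log2 ratio 0.29) to 35.8 and 63.0 CPM in neutrophils (0.74). In neutrophils of 2000 to 10000 UMIs the ratio was -3.13. That value rests on few chemoresistant cells, since 620 of the 647 held 500 to 2000 UMIs. Psmg4 was also higher in 21 of the 22 clusters with at least 50 cells in both libraries, the exception being cluster 12 (59.1 and 58.9 CPM). That cluster held 27.4% of primary and 17.2% of chemoresistant dendritic cells. Of its 3 partners in alpha ring assembly, not 1 was higher in all 7 classes. In the tumour class, Psmg1 had 28.1 and 24.8 CPM (-0.15), Psmg2 -0.16, and Psmg3 31.6 and 36.2 CPM (0.17). Psmg1 and Psmg3 were above 0 in 5 of 7 classes each, with Psmg1 under 10 CPM in 1 class. Psmg2 was below 0 in 6 of 7 classes. In all, 9 of the 43 genes at 10 CPM in every class had a ratio above 0 in all 7 (Psma2, Psma5, Psma6, Psma7, Psmb1, Psmb3, Psmb4, Psmb5 and Psmg4), where 8.57% of 6090 genes did. None of the 43 was below 0 in all 7, which 16.8% of genes were. Psmb3 is among the 9 with ratios of 0.00078 in dendritic cells and 0.0041 in neutrophils.

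The parting of core and regulatory genes can be given as 1 value per class, the number of core UMIs for each regulatory UMI. It went from 1.61 to 1.93 in the tumour class, a log2 difference of 0.26 (0.24 to 0.28), and from 1.76 to 1.99 in mononuclear phagocytes, 0.17 (0.15 to 0.20). The log2 difference was 0.29 (0.24 to 0.35) in fibroblasts, 0.27 (0.13 to 0.42) in neutrophils, 0.32 (0.23 to 0.41) in dendritic cells, 0.27 (0.21 to 0.33) in B cells and 0.37 (0.21 to 0.54) in T cells. All 7 intervals lay above 0, although in tumour-class cells of 2000 to 10000 UMIs the difference was 0.048. Within clusters of at least 50 cells in both libraries it was higher in 20 of 22, in 18 with an interval above 0, which includes both main tumour clusters (0.27 in cluster 2 and 0.21 in cluster 11). It was lower in cluster 16, the fibroblast cluster (-0.10, from -0.20 to 0.01), and in cluster 8 of mononuclear phagocytes (-0.10, from -0.18 to -0.03). The fibroblast value thus compares mainly cluster 16 of one library with cluster 18 of the other.

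Transcript length moved with this pattern over all genes. In the tumour class, genes with a longest transcript under 1000 bases had a median log2 ratio of 0.23, those of 1000 to 2000 bases 0.09, and those of at least 5000 bases -0.25. Medians also fell from the shortest to the longest genes in the other 6 classes, for example from 0.45 to -0.23 in T cells. The median longest transcript was 1311 bases for core and 1983 bases for regulatory genes, and that of Psmg4 is 555 bases, the shortest of the 46. When each ratio was set against the median of genes of like length, the core medians were 0.12 (tumour), 0.11 (fibroblast), 0.14 (mononuclear phagocyte), 0.13 (neutrophil), 0.16 (dendritic cell), 0.03 (B cell) and 0.33 (T cell). The regulatory medians were then -0.05, -0.10, -0.02, 0.0038, 0.04, -0.17 and -0.03 in the same order. The core stayed above the regulatory genes in each class by this measure, but many calls were lost. Psmg4 no longer passed 1.5-fold in any of its 4 classes (0.41 in neutrophils, 0.36 in dendritic cells, 0.28 in B cells and 0.25 in T cells), nor did Psme2 in dendritic cells (0.41) or Psma4 (0.56) and Psma5 (0.53) in neutrophils. In T cells 7 genes were then higher and 1 lower.

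**Figure D4:**
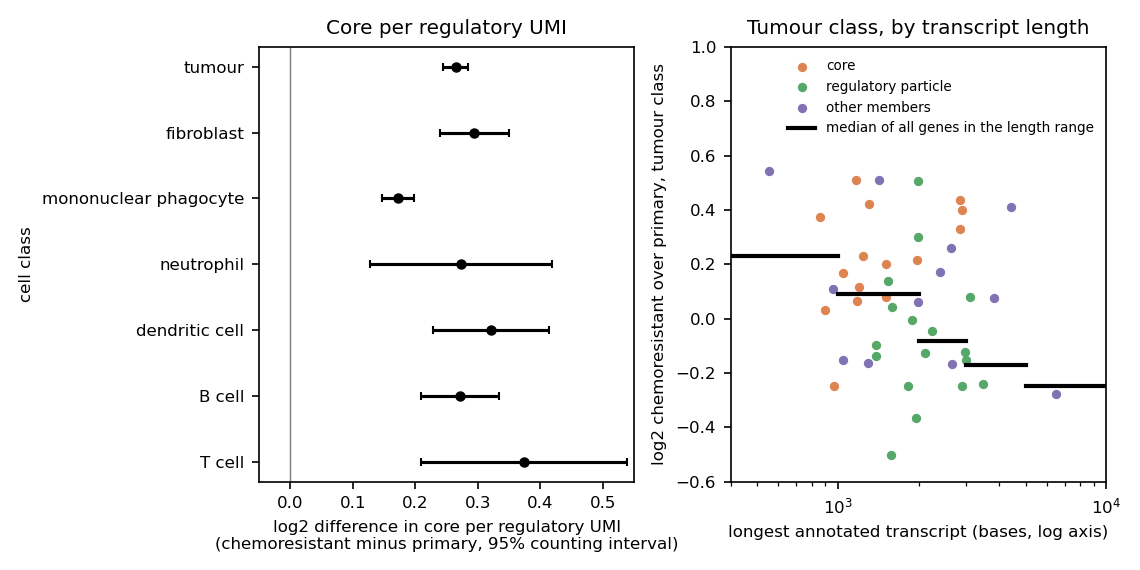
Left, log2 difference (chemoresistant minus primary) in core UMIs per regulatory UMI in 7 classes, with 95% counting intervals, all above 0. Right, log2 library ratio of each proteasome gene in the tumour class against its longest annotated transcript (bases, log axis), with black bars for the median of all genes in each length range, which fall from 0.23 to -0.25.

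Depth per cell moved with the level as well, though not in the same way in each class and library. In primary B cells the summed proteasome level went from 2398 CPM in cells of 500 to 2000 UMIs to 3922 CPM in those of 10000 to 20000, and in primary dendritic cells from 3106 CPM at 2000 to 5000 UMIs to 5267 CPM at 10000 to 20000. Chemoresistant B cells stayed level, at 3512 CPM at 500 to 2000 UMIs and 3527 CPM at 2000 to 5000. The chemoresistant tumour class had 7645 CPM at 2000 to 5000 UMIs, 6265 CPM at 10000 to 20000 and 6462 CPM at 20000 or more. Primary fibroblasts had 4397 CPM at 500 to 2000 UMIs, 3313 CPM at 5000 to 10000 and 5733 CPM at 20000 or more. Chemoresistant cells were shallower in all classes but fibroblasts. At matched depth the fold between libraries was larger than in the whole class in B cells, dendritic cells and neutrophils, and in some ranges of other classes. In neutrophils the fold was 1.32 at 500 to 2000 UMIs, against 1.14 for the class. Mononuclear phagocytes had 1.31 at 2000 to 5000, 1.19 at 5000 to 10000 and 1.10 at 10000 to 20000 UMIs, against 1.08 for the class. The fold was, in B cells, 1.46 (1.30 to 1.65) at 500 to 2000 UMIs and 1.14 at 2000 to 5000, against 1.09 (1.07 to 1.12) for all B cells. In dendritic cells it was 1.85 at 2000 to 5000 and 1.46 at 5000 to 10000 UMIs, against 1.20 for the class. The tumour class had 1.18 (1.14 to 1.23) at 10000 to 20000 UMIs, 1.07 (1.07 to 1.08) at 20000 or more. Of 18 ranges with at least 20 cells in both libraries, the summed level was higher in the chemoresistant library in 14 and core per regulatory UMI in 17. Fibroblasts of 2000 to 5000 UMIs, with 32 and 37 cells, went below on both measures (0.695-fold, and -0.42 on the log2 scale). The other ranges with a lower summed level were fibroblasts of 20000 UMIs or more (0.938-fold) and mononuclear phagocytes of 500 to 2000 UMIs (0.918-fold, 0.825 to 1.02) and of 20000 or more (0.980-fold, 0.953 to 1.01), while fibroblasts of 5000 to 10000 UMIs were 1.43-fold higher. Part of the library comparison can thus move with the mix of depths, and how much was not tested further.

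**Figure D5:**
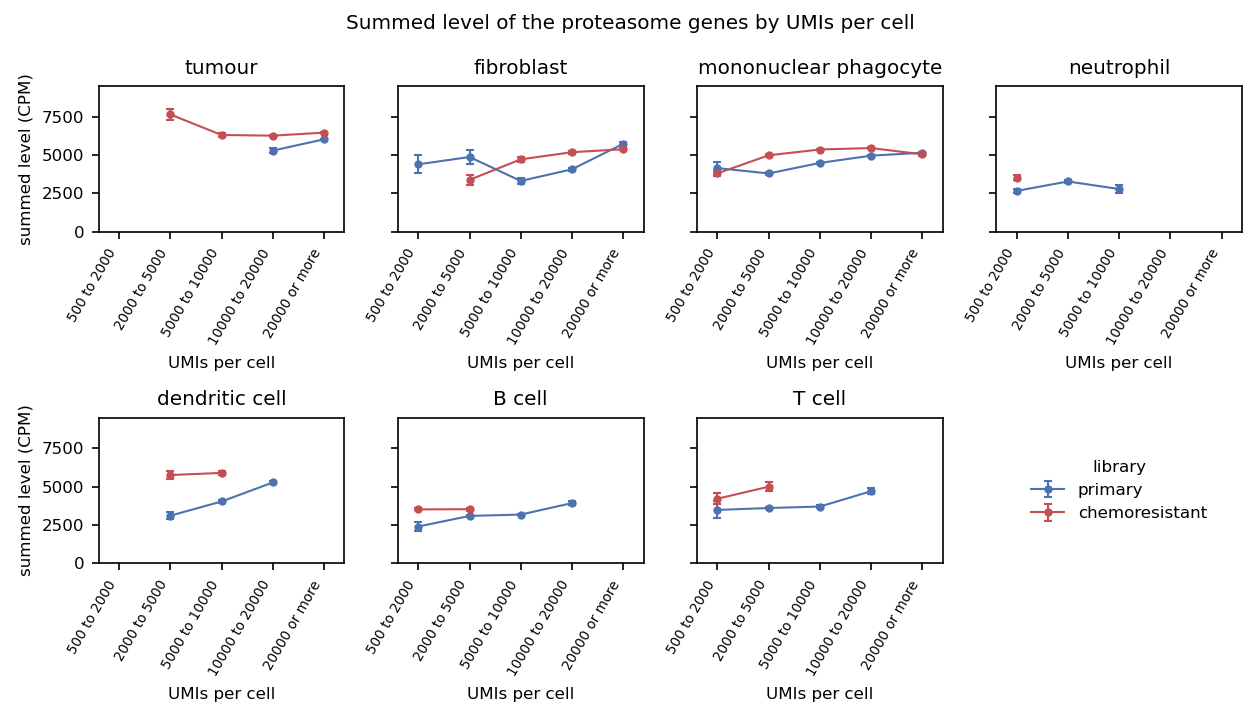
Summed level of the 46 proteasome genes (CPM) by UMIs per cell, in 7 classes, for the primary (blue) and chemoresistant (red) library with 95% counting intervals; ranges with under 20 cells are not drawn. In B cells and dendritic cells the chemoresistant points lie above the primary ones at equal depth.

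Cells with a UMI of a cycling gene (Mki67, Top2a or Cdk1) had more proteasome transcripts in the primary tumour class, with 6436 CPM against 5556 CPM in cells without one. These cells were also deeper, at a median of 56739 against 37570 UMIs, and depth was not matched here. In the chemoresistant tumour class the levels were 6585 and 6368 CPM. Of the 44 genes, 39 were higher in the cycling cells of the primary tumour class (median log2 ratio 0.19) and 31 in the chemoresistant one (0.05), where 44.1% and 40.6% of all genes were. Fibroblasts showed 42 of 44 higher in the primary (0.50) and 39 in the chemoresistant library (0.20), beside 44.9% and 56.5% of all genes. The classes did not all share this: 18 of 44 were higher in chemoresistant neutrophils (median -0.096) and 23 in chemoresistant B cells (0.04), beside 43.6% and 49.1% of all genes. Among cells without such a UMI, the tumour class went from 5556 to 6368 CPM between libraries, and its core median was 0.32.

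The other genes of the pathway were taken from a list of 44 measured genes, such as shuttles, regulators and antigen processing. In the tumour class 42 reached 10 CPM, of which 2 were called higher and 4 lower, beside 5.27% and 10.7% of all genes. The median log2 ratio of the 42 was -0.06. Psmb8 had 97.6 and 176 CPM (1.80-fold, 1.72 to 1.89), and B2m, the light chain of MHC class I, 471 and 752 CPM. The higher Psmb8 level did not hold within both main tumour clusters: it had 128 and 196 CPM in cluster 2, but 75.0 and 46.7 CPM in cluster 11. Among the lower genes were Irf1, an interferon-response factor (538 and 41.6 CPM), and Nfe2l2, the antioxidant regulator NRF2 (361 and 190 CPM). Calls in the other classes were 4 higher and 8 lower of 42 in fibroblasts, beside 10.1% and 29.3% of all genes. They were, of 43 genes each, 1 and 0 in mononuclear phagocytes (2.06% and 8.1%) and 3 and 2 in neutrophils (12.8% and 13.5%). Dendritic cells had 2 and 2 of 42 (3.77% and 21.3%) and B cells 1 and 1 of 43 (6.42% and 7.0%). In T cells they were 3 and 3 of 43 (14.3% and 18.4%). Of these, Psmb9 was called in T cells alone (128 and 204 CPM, from 590 and 79 UMIs).

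Across the 14 profiles, most core genes followed the mean of the core, Psma5 (r = 0.95), Psma7 and Psma4 (both 0.93) most closely. Psmb10 (0.07), Psme4 (0.05), Psmd5 (0.17), Psmd14 (0.17) and Psme1 (0.17) followed it least among the members of at least 10 CPM. Outside the list, the 5 genes most like the core mean were Tmem256 (0.95), Uqcrb (0.94), Edf1 (0.94), Vcp (0.94) and Ptpmt1 (0.93). These profiles share 2 libraries and their depths, and the correlation describes them without a test.

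Some members share sequence or position with other genes, which could move counts between them. Psma2 overlaps AW209491 and Psmd12 overlaps Gm11722 on the same strand, and Psme2 has the near-copy Psme2b. Genes on the opposite strand overlap 12 members, among them Psma4, Psma5, Psmb7, Psmb10 and Psme1. The sources used here do not say how reads were assigned by strand.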

How the data were processed

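The authors deposited 1 filtered matrix of raw UMI counts per library, made with Cell Ranger 8.0.1 per the submitters' processing notes. Barcodes with at least 500 UMIs, 250 detected genes and at most 20% mitochondrial UMIs were kept (12824 and 14908), and 1316 and 1778 probable doublets were removed by Scrublet score with a fixed share per library, since its automatic threshold marked 304 and 0. The 11508 primary and 13130 chemoresistant cells were classed by marker counts, with at least 4 markers and a lead of 15 points over the next list. Cells whose Leiden cluster was led by another list were set aside (4.01% and 1.28% of cells). This scoring rule, the kept-cells alternative and the other alternatives marked as added were chosen after seeing the data. UMIs were summed by class and library and divided by the class total (CPM). Ratios added 5 CPM, and a call needed 1.5-fold and 10 CPM in 1 library. Named with values are the cutting subunits, Psmb10, the activators, Psmf1, Psmd4, Psmd14, Psmg1 to Psmg4, called members, the highest and lowest ratio in each class and tumour role group, called pathway genes of the tumour class (some are not reported here), and the 5 genes most like the core mean. Other settings of the total, added CPM, filters, doublets, depth, clusters and length were tried. The members and lists were chosen with earlier results of these data known. The steps were tested on simulated data, in which some unchanged genes were called at T cell counts and 0 at tumour class counts. Of the features, 31961 matched GENCODE vM21 by identifier, and promoter windows are from RefSeq. Python 3.11.15, numpy 2.4.6, scipy 1.17.1, pandas 2.3.3, scanpy 1.11.5 and leidenalg 0.10.2 were used. UMIs from free RNA were not removed.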

Additional observations from a re-analysis of the deposited data

Results flagged for a closer look

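Psmc4, an ATPase of the regulatory particle, passed 1.5-fold in opposite directions in a pair of classes. Its log2 ratio of chemoresistant to primary CPM was -0.69 in neutrophils (36.9 and 21.0 CPM) and 0.78 in T cells (44.6 and 80.0 CPM). The chemoresistant values rest on 15 and 31 UMIs, and the difference between the classes was not tested. With the cells kept whose cluster is led by markers of another class, the neutrophil ratio was 0.07.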

How the results depend on the processing

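No paired analysis was possible because each group is 1 library. Core per regulatory UMI kept its direction in each class under each alternative tried, with 46 of its 57 alternative values near the reported one. Cells of 2000 to 10000 UMIs are few in the tumour class and among chemoresistant neutrophils, and the values of both under that setting are thin. Thinning to 1000 UMIs left out 403 of 647 chemoresistant neutrophils. The cause of each change below was not tested.

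Among called genes, 3 ratios reversed, all in neutrophils. Psmc4 was 0.065 with the cells of clusters led by another list kept, and Psmg2 was 0.21 with doublets kept. Psmg4 was -3.13 in cells of 2000 to 10000 UMIs. That value rests on few chemoresistant cells, since 620 of the 647 held 500 to 2000 UMIs.

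The number of members past 1.5-fold changed as follows. The share of all genes past it under each setting is not given, so the counts do not set these members apart from other genes. With ratios centred on the median gene it was 4 (tumour), 9 (fibroblast), 3 (mononuclear phagocyte) and 10 (dendritic cell), all higher. With mitochondrial, ribosomal, immunoglobulin and haemoglobin genes left out of the total it was 1 (tumour), 3 (fibroblast), 4 (dendritic cell) and 2 (B cell). By Leiden clusters it was 2 (tumour), 3 (fibroblast, lower) and 8 (T cell). With the mean over cells it was 1 (tumour), 1 (fibroblast), 4 (dendritic cell) and 2 (B cell). With thinning it was 10 (fibroblast, 4 higher and 6 lower), 3 (mononuclear phagocyte, 2 and 1), 11 (neutrophil, 7 and 4) and 16 (dendritic cell, 12 and 4). It was also 5 (tumour) and 3 (B cell), all higher. In cells of 2000 to 10000 UMIs it was 11 (tumour, 8 higher and 3 lower), 8 (fibroblast, 6 and 2) and 22 (neutrophil, 11 and 11). There it was also 3 (mononuclear phagocyte), 16 (dendritic cell) and 3 (B cell), all higher. Centred on genes of like length it was 1 (tumour, lower), 1 (fibroblast), 3 (neutrophil, lower), 1 (dendritic cell), 0 (B cell) and 8 (T cell). With 1 CPM added it was 2 (fibroblast) and 4 (dendritic cell), and with 20 CPM added 1 (neutrophil), 1 (dendritic cell), 0 (B cell) and 9 (T cell). The stricter margin gave 1 (fibroblast) and 7 (dendritic cell), doublets kept 1 and 1 in the same classes, and a minimum of 50 CPM 3 (neutrophil). In the tumour class it was 2 without cycling cells and 1 with the set-aside cells kept.

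The core median was 0.34 (tumour), 0.34 (fibroblast) and 0.41 (mononuclear phagocyte) when centred on the median gene, and the regulatory median -0.00096, 0.062 and 0.20. In the tumour class the core and regulatory medians were 0.14 and -0.019 with thinning, 0.32 and -0.027 without cycling cells, -0.017 and 0.0086 in cells of 2000 to 10000 UMIs, and 0.12 and -0.051 centred on length. Cells of 2000 to 10000 UMIs gave core medians of 0.38 (fibroblast), 0.34 (mononuclear phagocyte) and 0.57 (dendritic cell), and a regulatory median of 0.20 (fibroblast). The length-centred core median of B cells was 0.034.

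The log2 difference in core per regulatory UMI was, with thinning, 0.21 (tumour), 0.42 (fibroblast), 0.11 (mononuclear phagocyte), 0.58 (dendritic cell) and 0.35 (B cell). It was 0.048 (tumour), 0.10 (fibroblast) and 0.46 (dendritic cell) in cells of 2000 to 10000 UMIs, 0.31 without cycling cells and 0.23 with set-aside cells kept (both tumour), and 0.17 under the stricter margin (dendritic cell).

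Psmb10 per Psmb7 UMI in the primary tumour class was 0.468 with doublets kept, 0.485 under the stricter margin, 0.5 with thinning, 0.222 in cells of 2000 to 10000 UMIs and 0.557 with set-aside cells kept. In the chemoresistant tumour class it was 0.523 (stricter), 0.394 (Leiden), 0.38 (thinning), 0.48 (without cycling cells) and 0.367 (2000 to 10000 UMIs). Its order between the tumour libraries turned with doublets kept, with thinning and with set-aside cells kept. Elsewhere it was 1.55 (chemoresistant mononuclear phagocytes, doublets kept), 0.879 (primary B cells, Leiden), 0.892 and 1.07 (primary and chemoresistant B cells, set-aside cells kept) and 0.435 (chemoresistant fibroblasts, thinning). In cells of 2000 to 10000 UMIs it was 1.37 (primary fibroblasts), 1.5 (primary mononuclear phagocytes), 2 (chemoresistant neutrophils) and 1.06 (primary dendritic cells).

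Summed CPM (primary and chemoresistant) with mitochondrial, ribosomal, immunoglobulin and haemoglobin genes out of the total was 7582 and 8459 (tumour), 6075 and 7073 (fibroblast), 5822 and 6548 (mononuclear phagocyte), 3402 and 4035 (neutrophil), 6086 and 7916 (dendritic cell), 4474 and 5239 (B cell) and 5188 and 6523 (T cell). With doublets kept it was 6056 (primary tumour), 5395 (chemoresistant fibroblast), 5340 (chemoresistant mononuclear phagocyte), 3330 and 4154 (neutrophil), 3375 and 3762 (B cell) and 3939 and 5147 (T cell). A mitochondrial limit of 10% gave 6077 and 6479 (tumour) and 4896 (primary mononuclear phagocyte). The stricter margin gave 6211 and 6364 (tumour), 6074 (chemoresistant dendritic cell) and 3926 (primary T cell). Leiden clusters gave 5791 and 6291 (tumour), 5186 and 5048 (fibroblast, where the order turned), 6120 (chemoresistant dendritic cell), 3742 and 3750 (B cell) and 4465 (chemoresistant T cell). The mean over cells gave 5843 and 6474 (tumour), 4476 and 4957 (fibroblast), 4662 and 5045 (mononuclear phagocyte), 3682 and 4581 (T cell), and for the primary library 3057 (neutrophil), 4431 (dendritic cell) and 3122 (B cell). Without cycling cells the tumour class had 5556 and 6368. Cells of 2000 to 10000 UMIs gave 6584 and 6519 (tumour, where the order turned), 3634 and 4505 (fibroblast), 3245 and 3834 (neutrophil), 3662 and 5167 (T cell), and for the primary library 4401 (mononuclear phagocyte), 3892 (dendritic cell) and 3124 (B cell). Thinning gave 4604 and 4880 (fibroblast), 4680 and 5101 (mononuclear phagocyte), and for the primary library 3048 (neutrophil), 4283 (dendritic cell), 3068 (B cell) and 3636 (T cell). With set-aside cells kept it was 3342 and 4584 (neutrophil) and 3794 and 3864 (B cell).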
